A study of Mus musculus with 12 samples.

Results

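Inflammasomes are protein scaffolds that form in the cytosol when a sensor meets a microbial or danger signal. The genes described are 9 members of this pathway in mouse lung: the sensors Nlrp3, Aim2, Nlrc4, Naip5 and Mefv, the adaptor Pycard, the proteases Casp1 and Casp4, and the pore-forming Gsdmd. They were taken by gene symbol, and all 9 were found among the 17920 genes of the deposited tables. Each sensor responds to its own trigger. NLRP3 responds to potassium efflux and membrane damage, AIM2 to double-stranded DNA in the cytosol, NAIP5 to bacterial flagellin, which it passes on to NLRC4, and pyrin, the product of Mefv, to the action of certain bacterial toxins. PYCARD, also called ASC, joins a sensor to pro-caspase-1. Caspase-1 then matures interleukin 1 beta and interleukin 18 and cleaves gasdermin D, whose free N-terminal part opens pores in the plasma membrane and leads to the lytic cell death called pyroptosis. Casp4 encodes the protease long called caspase-11 in mice. It binds lipopolysaccharide (LPS) in the cytosol directly and cleaves gasdermin D without caspase-1. In the lung these proteins are best known from alveolar macrophages, monocytes and neutrophils.

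The samples were lungs of male BALB/c mice, aged 6 to 8 weeks, in 4 groups with 3 sequenced mice each and 1 library per mouse. Mice of the LPS+bLF group received LPS together with bLF, the lactoferrin of cow's milk, which binds iron and also LPS. Mice of the LPS group received LPS alone, as 50 µL at 1 µg/µL. Mice of the bLF group received lactoferrin alone, at 200 mg/kg per day, and control mice received neither, and lungs were taken after 14 days of modelling. How and on which day LPS was given, and any mock treatment of the controls, are not given in the sources used here. Whole lung was sequenced as polyadenylated RNA, so fewer cells of a type and less RNA per cell cannot be told apart.

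Library totals lay between 16714327 and 17820645 counts. For a gene without counts, the upper limit was 0.168 to 0.179 CPM (3 counts over the library total, counting error only). Lung markers were present in all 12 libraries. The summed level of 10 epithelial and endothelial markers was 121600 to 471200 FPKM in 11 libraries. FPKM is a fragment count corrected for the length of the gene and the size of the library. Control replicate 2 was above these 11, at 1158000 FPKM. Several libraries stood apart. LPS replicate 1 had the lowest median rank correlation with the others (0.903, against 0.944 to 0.979). It had 3072 genes at 0, against 1508 to 1974 in the other 11 libraries. Its summed neutrophil marker level was 1633 FPKM, where the other 11 libraries had 192.2 to 624.9 FPKM. Summed brown fat markers were at 1436 FPKM in LPS+bLF replicate 2, 684.4 FPKM in bLF replicate 1 and 920.4 FPKM in control replicate 1. Elsewhere they were at most 116.5 FPKM. LPS+bLF replicate 3 had 3102 FPKM of skeletal muscle and 774.2 FPKM of squamous epithelium markers. These 5 libraries were also left out together in 1 fit, and control replicate 2 was kept in it.

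The promoter windows of Pycard, Aim2, Naip5 and Casp4 are shown first. Those of Pycard and Aim2 hold a motif of the myeloid factor PU.1, whose own transcript is described further on. A link between the motif, that transcript and the levels of these genes was not tested. RefSeq (GRCm38.p6) gave windows of 300 bases, 250 before to 50 after an annotated start, for 8 of the 9 genes and 10 starts in all. Each window was searched on both strands for the PU.1 motif GAGGAAGT, the interferon response motif (GAAA, any 2 bases, GAAA), the PU.1 and IRF composite motif (GGAA, any 2 bases, GAAA), the STAT motif TTCNNNGAA and the NF-kB consensus motif. In the windows printed, capitals mark the matches, which do not overlap matches of another motif.
Pycard (chr7:127993818-127994117, minus strand): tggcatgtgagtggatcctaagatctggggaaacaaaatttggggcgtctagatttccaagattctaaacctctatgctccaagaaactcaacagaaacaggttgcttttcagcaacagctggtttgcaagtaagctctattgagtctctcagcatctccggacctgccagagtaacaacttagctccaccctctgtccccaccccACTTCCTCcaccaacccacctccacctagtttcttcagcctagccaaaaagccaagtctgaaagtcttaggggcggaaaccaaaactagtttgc
Aim2 (chr1:173420354-173420653, plus strand): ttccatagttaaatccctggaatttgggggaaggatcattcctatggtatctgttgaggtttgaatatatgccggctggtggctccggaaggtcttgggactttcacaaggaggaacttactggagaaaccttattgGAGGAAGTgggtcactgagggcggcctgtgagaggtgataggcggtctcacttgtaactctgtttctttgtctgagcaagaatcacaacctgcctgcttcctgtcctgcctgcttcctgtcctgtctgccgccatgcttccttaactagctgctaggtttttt
Naip5 (chr13:100247287-100247586, minus strand): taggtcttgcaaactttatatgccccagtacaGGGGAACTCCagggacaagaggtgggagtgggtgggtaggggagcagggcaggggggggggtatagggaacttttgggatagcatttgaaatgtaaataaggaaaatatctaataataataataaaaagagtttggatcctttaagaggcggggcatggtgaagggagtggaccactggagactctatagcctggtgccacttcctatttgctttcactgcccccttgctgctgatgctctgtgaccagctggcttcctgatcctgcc
Casp4 (chr9:5308599-5308898, plus strand): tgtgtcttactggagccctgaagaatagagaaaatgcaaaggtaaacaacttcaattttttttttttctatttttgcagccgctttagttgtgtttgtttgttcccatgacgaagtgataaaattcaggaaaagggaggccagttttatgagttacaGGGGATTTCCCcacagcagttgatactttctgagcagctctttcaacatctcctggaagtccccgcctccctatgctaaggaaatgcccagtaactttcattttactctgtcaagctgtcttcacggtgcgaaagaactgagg
The capitals are a PU.1 match in the Pycard window (44 bases before the start, on the opposite strand) and in the Aim2 window (113 bases before the start). They are NF-kB matches in the Naip5 window and in the Casp4 window, where overlapping matches on both strands join to 11 bases. Of the 10 windows, 2 held the PU.1 motif and 4 the NF-kB motif (both windows of Casp4, 1 of Nlrp3 and that of Naip5). The windows of Casp4 overlap and hold the same site, so the 4 windows hold 3 different sites. Among all 32851 RefSeq windows of this length, 3.2% held the PU.1 motif and 4.51% the NF-kB motif. The interferon, composite and STAT motifs were in 0 of the 10 windows and in 3.44%, 2.72% and 8.3% of all windows. These are matches of letters, not measured binding.

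The levels of the 9 genes spanned a wide range, with the executioner far above its upstream partners. Gsdmd (ID 69146, chromosome 15, 75862144 to 75867408, GRCm38) averaged 50.06 ± 6.05 FPKM over the libraries (SD, n = 12), 8.42 times the mean of Casp4. Casp4 (ID 12363, chromosome 9, 5308849 to 5336791) averaged 5.95 ± 1.84 FPKM, Pycard (ID 66824, chromosome 7, 127991373 to 127993867) 3.25 ± 1.11 FPKM, and Casp1 (ID 12362, chromosome 9, 5298517 to 5307281) 2.39 ± 1.03 FPKM. The sensors were lower. Aim2 (ID 383619, chromosome 1, 173349547 to 173466040) averaged 1.86 ± 0.586 FPKM, Naip5 (ID 17951, chromosome 13, 100211735 to 100250930) 1.09 ± 0.363 FPKM, and Nlrp3 (ID 216799, chromosome 11, 59541569 to 59566955) 0.644 ± 0.188 FPKM. Mefv (ID 54483, chromosome 16, 3706974 to 3718211) averaged 0.396 ± 0.132 FPKM and Nlrc4 (ID 268973, chromosome 17, 74426255 to 74459144) 0.123 ± 0.0866 FPKM (SD, n = 12 for each gene). Gsdmd exceeded Casp4, Aim2 exceeded Naip5 and Mefv exceeded Nlrc4 in all 12 libraries. Pycard exceeded Casp1, Casp1 exceeded Aim2 and Nlrp3 exceeded Mefv in 9 of 12 libraries each, so the ranges of these neighbours overlapped.

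Gsdmd was also the steadiest of the 9. Its coefficient of variation over the 12 libraries was 12.1%, where 7.29% of tested genes had a lower value and the median of tested genes was 24.4%. The other tested members had 29.1% (Nlrp3) to 43.2% (Casp1). Total counts over 12 libraries ran from 93 for Nlrc4, with 2 to 23 per library, to 16056 for Gsdmd, with 991 to 1564 per library. Counting error is larger for genes with few counts and enters the coefficient of variation. How much of the ranking follows from depth was not tested.

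A minimum of 0.5 FPKM in at least 3 libraries was set for testing, and 7 of the 9 members passed it. Nlrc4 and Mefv did not, and their values are given without that test. In each comparison edgeR's quasi-likelihood test with Benjamini-Hochberg adjustment over 13735 genes called 0 members, and 0 of all genes (0%), at an adjusted p under 0.05. DESeq2 called 1 member in 1 of the comparisons, Pycard in the LPS effect averaged over lactoferrin, where it called 138 of all genes. It called 0 members in LPS versus control, where it called 139 of all genes and gave Pycard an adjusted p = 0.229. The differences that follow are therefore counted at an unadjusted p under 0.05, beside the share of all tested genes that reach the same limit.

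**Figure D1:**
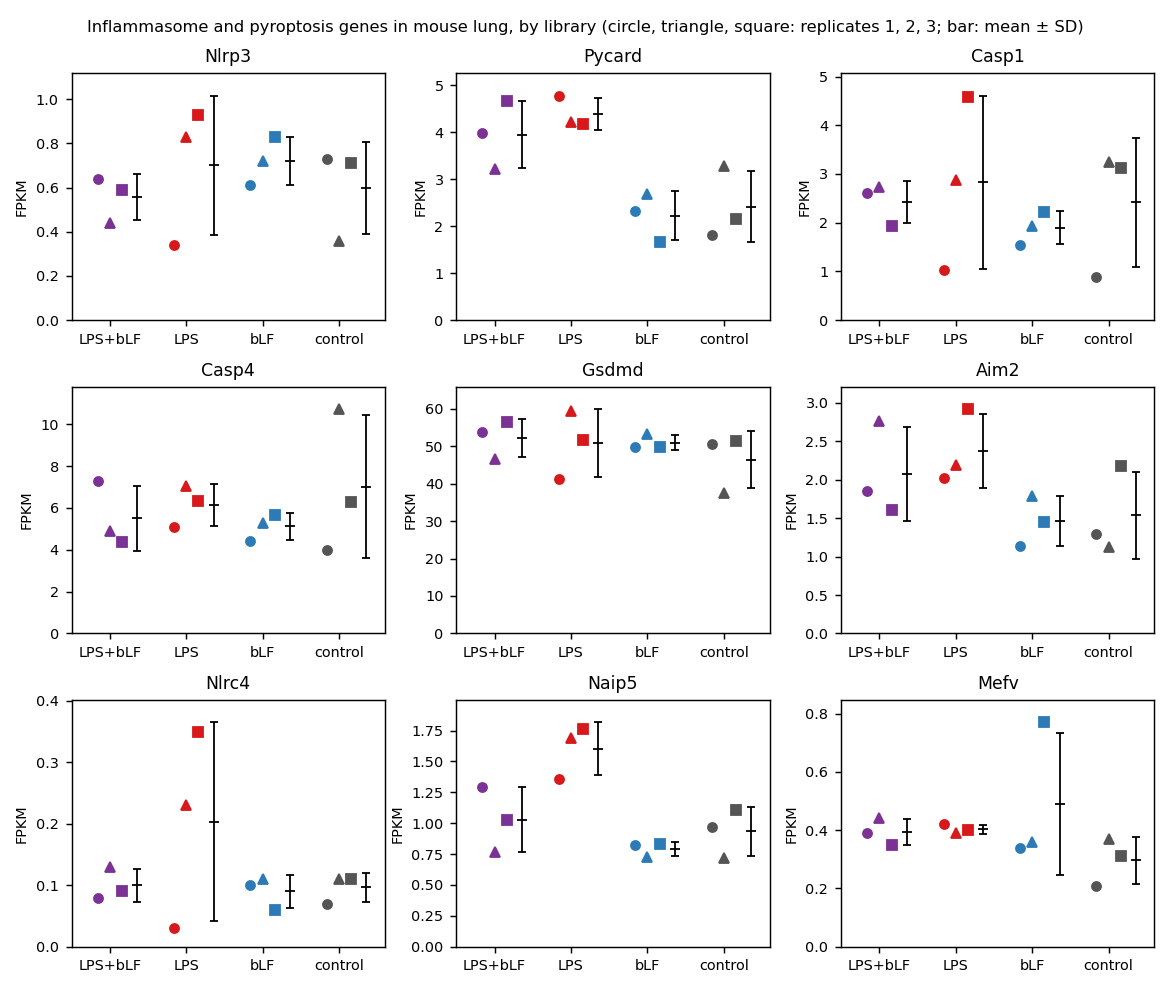
FPKM of the 9 genes in each library, by group (points: libraries, with circle, triangle and square for replicates 1, 2 and 3; bars: mean ± SD, n = 3). Pycard lies between 3.22 and 4.78 FPKM in the 6 libraries with LPS and between 1.66 and 3.28 FPKM in the 6 without, whereas Gsdmd lies between 37.52 and 59.41 FPKM throughout.

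LPS versus control asked how the pathway differed in lungs given LPS alone. The adaptor and the flagellin sensor were higher, without passing correction. The DNA sensor, the proteases and gasdermin D overlapped between the groups. Pycard was at 4.78, 4.21 and 4.18 FPKM in LPS lungs, against 1.82, 3.28 and 2.16 FPKM in control lungs. The groups did not overlap, and control replicate 2 was the nearest to the LPS range. Pycard averaged 4.39 ± 0.338 FPKM in LPS lungs and 2.42 ± 0.764 FPKM in control lungs (SD, n = 3 each), a fitted log2 fold change of 0.91 ± 0.32 (SE) or 1.87-fold, with adjusted p = 0.6 in edgeR. Naip5 was at 1.36, 1.69 and 1.76 FPKM in LPS lungs, against 0.97, 0.72 and 1.11 FPKM in control lungs. Every LPS library was above every control library (log2 fold change 0.80 ± 0.27, SE, edgeR adjusted p = 0.566). Aim2 was at 2.02, 2.19 and 2.92 FPKM in LPS lungs, against 1.3, 1.13 and 2.18 FPKM in control lungs, and control replicate 3 lay within the LPS range (0.69 ± 0.32, SE, edgeR adjusted p = 0.684).

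Nlrp3, Casp1, Casp4 and Gsdmd showed no such separation. Nlrp3, itself a gene that LPS can induce through NF-kB, was at 0.34, 0.83 and 0.93 FPKM in LPS lungs, against 0.73, 0.36 and 0.71 FPKM in control lungs. LPS replicate 1 was the lowest of all 12 libraries and LPS replicate 3 the highest (log2 fold change 0.24 ± 0.37, SE, edgeR adjusted p = 0.791). Casp1 was at 1.02, 2.88 and 4.58 FPKM in LPS lungs, against 0.89, 3.24 and 3.13 FPKM in control lungs, so that replicate 1 was the lowest of each group. Casp4 was at 5.07, 7.04 and 6.33 FPKM in LPS lungs, against 4, 10.73 and 6.3 FPKM in control lungs, and control replicate 2 was the highest of all libraries. The log2 fold changes of Casp1 and Casp4 were 0.20 ± 0.54 and -0.24 ± 0.38 (SE), smaller than their errors. Gsdmd was at 41.24, 59.41 and 51.74 FPKM in LPS lungs, against 50.49, 37.52 and 51.24 FPKM in control lungs, with overlapping groups and a fitted change of 0.18 ± 0.13 (SE, edgeR adjusted p = 0.686).

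Below the minimum for testing, Nlrc4 was at 0.03, 0.23 and 0.35 FPKM in LPS lungs, against 0.07, 0.11 and 0.11 FPKM in control lungs, and the LPS group held both the lowest and the highest library of all. Mefv was at 0.42, 0.39 and 0.4 FPKM in LPS lungs, against 0.21, 0.37 and 0.31 FPKM in control lungs, and its groups did not overlap. In a fit without the minimum these genes had log2 fold changes of 1.06 for Nlrc4 and 0.56 for Mefv, each with adjusted p = 0.749 in edgeR.

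Of the 7 tested members, 2 (Pycard and Naip5) were higher at an unadjusted p under 0.05, where 5.52% of all tested genes were, and 0 were lower, where 1.62% were. The same 2 members did not overlap between groups on the higher side, where 4% of tested genes did not overlap either. The median log2 fold change was 0.24 over the 7 members and -0.04 over all tested genes. Without LPS replicate 1, control replicate 1 or control replicate 3, Pycard no longer reached that limit, with log2 fold changes of 0.71, 0.72 and 0.80. Its log2 fold change was 1.29 without control replicate 2, the highest with 1 library left out. With 5 libraries that stood apart left out together, a choice made after seeing the data, the log2 fold change of Pycard was 0.53, no longer at that limit, and that of Naip5 0.79, still at it.

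Markers of most leukocyte types were higher alongside Pycard and Naip5, and B cell markers were lower. The 7 pan-leukocyte markers summed to 808.6 to 840.3 FPKM in LPS lungs and 461.5 to 539.1 FPKM in control lungs, with 7 of 7 higher and 3 at an unadjusted p under 0.05. Of 12 monocyte and macrophage markers, 12 were higher and 7 had an unadjusted p under 0.05, and none of the 12 was at 0 in any library. Their sum, at 512.2 to 3721 FPKM in LPS lungs and 900.2 to 2570 FPKM in control lungs, overlapped between the groups. The 8 alveolar macrophage markers, 7 of them higher and 4 at an unadjusted p under 0.05, summed to 280.1 to 513.6 FPKM in LPS lungs and 158.8 to 206.1 FPKM in control lungs, and none was at 0. The 10 neutrophil markers, 7 of them higher and 4 at an unadjusted p under 0.05, summed to 276.6 to 1633 FPKM in LPS lungs and 192.2 to 624.9 FPKM in control lungs. LPS replicates 2 and 3, at 276.6 and 326.2 FPKM, lay within the control range. NK cell markers were higher in 8 of 8 cases, 1 at that limit, and T cell markers in 4 of 5, 0 at that limit. NK cell markers summed to 24.73, 577.6 and 530.2 FPKM in LPS replicates 1, 2 and 3, against 121.5 to 149.7 FPKM in control lungs. The 6 T cell markers found summed to 11.78, 32.41 and 33.98 FPKM, against 22.99 to 25.54 FPKM. In both lists LPS replicate 1 was below every control library. B cell markers were lower in 7 of 7 cases, 0 at that limit. They summed to 43.4 to 163.4 FPKM in LPS lungs and 111.5 to 201.4 FPKM in control lungs, with overlap. Of all tested genes 5.52% were higher at that limit and 1.62% lower. The part of these cell types in the values of Pycard and Naip5 was not tested.

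**Figure D2:**
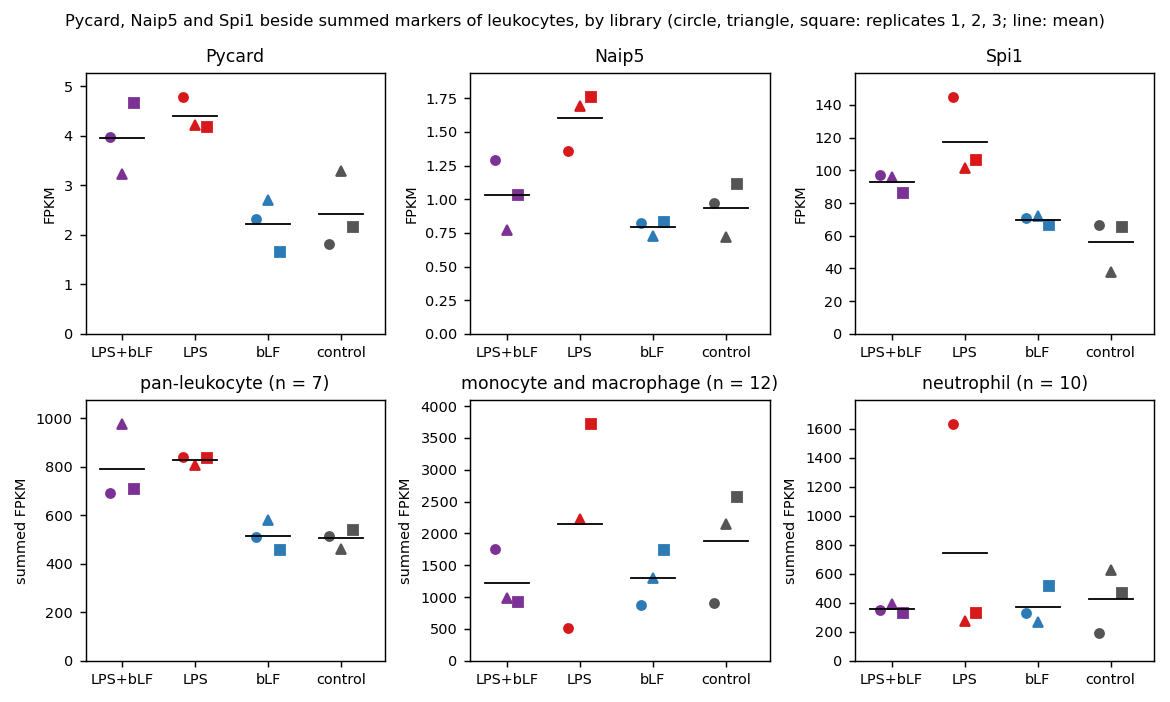
FPKM of Pycard, Naip5 and Spi1 (upper row) and summed FPKM of 7 pan-leukocyte, 12 monocyte and macrophage and 10 neutrophil markers (lower row) in each library, by group (points: libraries; lines: group means, n = 3). The pan-leukocyte sum lies at 692.2 FPKM or more in the libraries with LPS and at 579.7 FPKM or less in those without, and the neutrophil sum is highest in LPS replicate 1.

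Averaged over both lactoferrin states, LPS was compared in 6 lungs with LPS against 6 without. Here too Pycard led. It was at 3.98, 3.22 and 4.66 FPKM in LPS+bLF lungs and, as given above, at 4.18 to 4.78 FPKM in LPS lungs, against 2.32, 2.69 and 1.66 FPKM in bLF lungs and 1.82 to 3.28 FPKM in control lungs. Only control replicate 2, at 3.28 FPKM, was above the lowest library with LPS, which was LPS+bLF replicate 2 at 3.22 FPKM. The averaged log2 fold change of Pycard was 0.88 ± 0.22 (SE), with adjusted p = 0.324 in edgeR, and 0.90 with adjusted p = 0.0265 in DESeq2. Aim2 had 0.63 ± 0.23 and Naip5 0.56 ± 0.19 (SE), with edgeR adjusted p = 0.66 and 0.562. Without LPS+bLF replicate 2 Aim2 had 0.49, and without the 5 libraries that stood apart 0.38, both with an unadjusted p above 0.05. These 3 of 7 members were higher at an unadjusted p under 0.05, where 4.92% of all tested genes were, and 0 were lower, where 1.77% were. Nlrp3 (-0.06 ± 0.26), Casp1 (0.29 ± 0.38), Casp4 (-0.06 ± 0.27) and Gsdmd (0.12 ± 0.09, SE) did not reach that limit. The comparison shares its LPS and control libraries with the one above, so it is not a separate test of them.

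**Figure D3:**
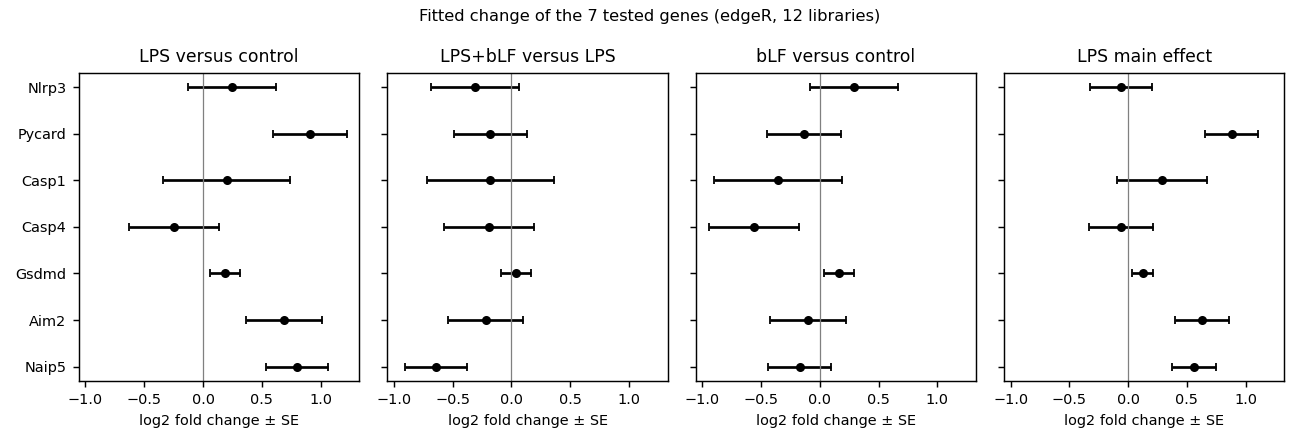
Fitted log2 fold change (x axis, ± SE) of the 7 tested genes in 4 comparisons, all from the edgeR fit of 12 libraries. Pycard, Aim2 and Naip5 lie to the right in LPS versus control (0.91, 0.69 and 0.80), and Naip5 lies to the left in LPS+bLF versus LPS (-0.64).

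LPS+bLF versus LPS asked how the pathway differed when lactoferrin was given with LPS. The comparison shares its LPS libraries with LPS versus control, so it is not a separate test of them. Naip5 was lower, without passing correction, and the other 6 tested members differed by less than their errors. Naip5 was at 1.29, 0.77 and 1.03 FPKM in LPS+bLF lungs, against 1.36, 1.69 and 1.76 FPKM in LPS lungs. Every LPS+bLF library was below every LPS library, as for 4.91% of tested genes, though LPS+bLF replicate 1 and LPS replicate 1 lay close together. Naip5 averaged 1.03 ± 0.26 FPKM in LPS+bLF lungs and 1.60 ± 0.214 FPKM in LPS lungs (SD, n = 3 each), with a log2 fold change of -0.64 ± 0.27 (SE, edgeR adjusted p = 0.689). It was 1 of 7 members lower at an unadjusted p under 0.05, where 3.65% of all tested genes were, and 0 were higher, where 3.27% were. It no longer reached that limit when fitted on the LPS+bLF and LPS libraries alone (-0.66), or without LPS replicate 2 (-0.67), LPS replicate 3 (-0.61), LPS+bLF replicate 2 (-0.47) or LPS+bLF replicate 3 (-0.63). Without the 5 libraries that stood apart it had -0.32. Monocyte and macrophage markers were lower too, 12 of 12, with 3 at an unadjusted p under 0.05. They summed to 926.1 to 1762 FPKM in LPS+bLF lungs and 512.2 to 3721 FPKM in LPS lungs. The 7 pan-leukocyte markers were mixed, with 3 higher and 4 lower, and 1 at that limit on each side. Their sum overlapped, at 692.2 to 977.6 FPKM in LPS+bLF lungs and 808.6 to 840.3 FPKM in LPS lungs. Alveolar macrophage markers were lower in 7 of 8 cases, 1 at that limit, and summed to 140 to 214.7 FPKM in LPS+bLF lungs and 280.1 to 513.6 FPKM in LPS lungs, without overlap. Neutrophil markers were lower in 9 of 10 cases, 2 at that limit, and NK cell markers in 8 of 8, 1 at that limit. The neutrophil sum was 1633 FPKM in LPS replicate 1, but 276.6 and 326.2 FPKM in LPS replicates 2 and 3. LPS+bLF lungs, at 328.2 to 390 FPKM, were above LPS replicates 2 and 3. The NK cell sum was 24.73, 577.6 and 530.2 FPKM in LPS replicates 1, 2 and 3, against 162.5 to 257.4 FPKM in LPS+bLF lungs. B cell markers were higher, 7 of 7 with 5 at that limit, and summed to 223.5 to 573.4 FPKM in LPS+bLF lungs and 43.4 to 163.4 FPKM in LPS lungs, without overlap. T cell markers were higher in 5 of 5 cases, 0 at that limit, with overlapping sums. Ms4a1 of the B cell list, Gzmb of the NK list, and Cd3e and Cd28 of the T cell list were at 0 in at least 1 library. The part of these cell types in the value of Naip5 was not tested.

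The adaptor differed less than its error between these groups. Pycard averaged 3.95 ± 0.72 FPKM in LPS+bLF lungs and 4.39 ± 0.338 FPKM in LPS lungs (SD, n = 3 each; log2 fold change -0.18 ± 0.31, SE, edgeR adjusted p = 0.928). Aim2, at 1.85, 2.76 and 1.6 FPKM in LPS+bLF lungs, overlapped the LPS lungs, which ran from 2.02 to 2.92 FPKM (-0.22 ± 0.32, SE). Nlrp3 was at 0.64, 0.44 and 0.59 FPKM in LPS+bLF lungs, inside the range of 0.34 to 0.93 FPKM of the LPS lungs. Casp1, at 2.61, 2.74 and 1.94 FPKM, and Casp4, at 7.27, 4.88 and 4.37 FPKM in LPS+bLF lungs, also overlapped the LPS values, as did Gsdmd at 53.65, 46.44 and 56.34 FPKM. Nlrc4 was at 0.08, 0.13 and 0.09 FPKM in LPS+bLF lungs, between the 0.03 FPKM and the 0.23 and 0.35 FPKM of the LPS lungs, with a log2 fold change of -0.98 and an adjusted p of 0.769 in the edgeR fit without the minimum. Mefv, at 0.39, 0.44 and 0.35 FPKM in LPS+bLF lungs, covered its LPS range of 0.39 to 0.42 FPKM.

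bLF versus control asked what lactoferrin alone did. No member reached an unadjusted p under 0.05 in either direction, where 0.714% of all tested genes were higher and 0.663% lower. Of the 7 tested members Casp4 had the largest fitted difference, at -0.56 ± 0.39 (SE, edgeR adjusted p = 1), with 4.42, 5.3 and 5.66 FPKM in bLF lungs, against 4, 10.73 and 6.3 FPKM in control lungs. This value rested on control replicate 2, and without it the log2 fold change was 0.05. Without control replicate 1 it was -0.88, at an unadjusted p under 0.05. Aim2 was at 1.14, 1.79 and 1.45 FPKM and Naip5 at 0.82, 0.73 and 0.83 FPKM in bLF lungs, within their control ranges of 1.13 to 2.18 FPKM and 0.72 to 1.11 FPKM. Gsdmd was at 49.7, 53.24 and 49.71 FPKM in bLF lungs, the narrowest spread of the 4 groups (50.88 ± 2.04 FPKM, SD, n = 3). Nlrp3 was at 0.61, 0.72 and 0.83 FPKM, Casp1 at 1.55, 1.94 and 2.21 FPKM and Nlrc4 at 0.1, 0.11 and 0.06 FPKM in bLF lungs. Mefv was at 0.34, 0.36 and 0.77 FPKM in bLF lungs, and bLF replicate 3 was the only library of the 12 with at least 0.5 FPKM of Mefv (log2 fold change 0.74 and adjusted p = 1 in the edgeR fit without the minimum).

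LPS+bLF versus control set lungs with both agents against lungs with neither. Pycard had a log2 fold change of 0.73 ± 0.31 (SE, edgeR adjusted p = 0.832), and the value of 3.28 FPKM in control replicate 2 lay just above the lowest LPS+bLF library. It was 1 of 7 members higher at an unadjusted p under 0.05, where 2.63% of all tested genes were, and 0 were lower, where 2.18% were. It lost that limit in 7 of the 12 fits with 1 library left out, namely control replicate 1 (0.54) or 3 (0.62), LPS replicate 3 (0.70), bLF replicate 1 (0.73) or 2 (0.70), and LPS+bLF replicate 1 (0.75) or 3 (0.58). It also lost it without the 5 libraries that stood apart (0.49) and with upper-quartile factors, the replicate block or only the groups compared. Naip5 had 0.16 ± 0.27 and Aim2 0.47 ± 0.32 (SE). The interaction, which is the lactoferrin effect with LPS minus that without, reached an unadjusted p under 0.05 for none of the 7 members, where 2.8% of all tested genes did. Its log2 values were -0.47 ± 0.38 for Naip5 and -0.05 ± 0.44 for Pycard (SE, edgeR adjusted p = 1 for each), so a different lactoferrin effect on Naip5 with and without LPS was not shown.

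**Figure D4:**
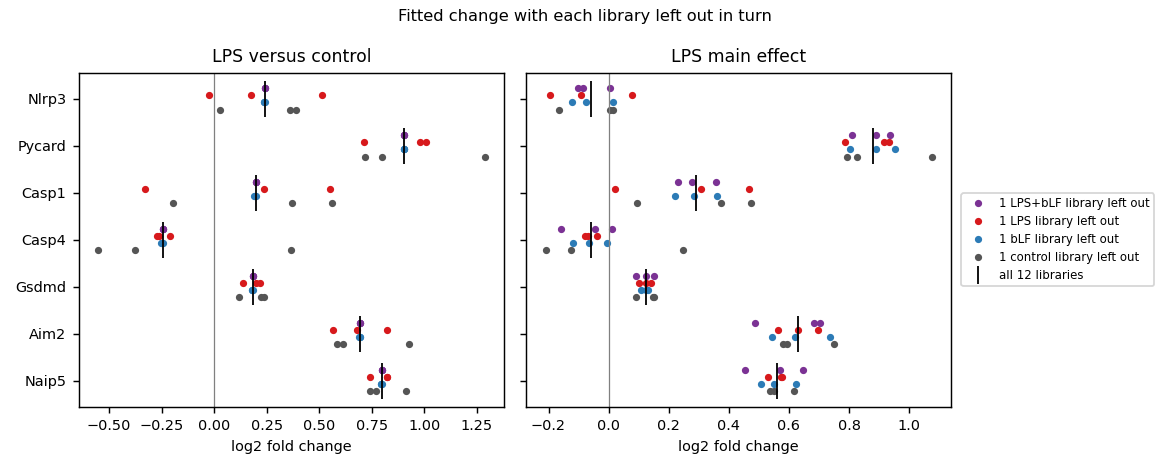
Fitted log2 fold change (x axis) of the 7 tested genes in LPS versus control and in the averaged LPS effect with each of the 12 libraries left out in turn (dots, by the group of the library left out; black bar: all 12 libraries). Pycard, Naip5, Aim2 and Gsdmd stay above 0 in both panels, and Nlrp3 and Casp4 cross 0 in both.

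Other genes of the pathway were described from 7 lists of 99 genes, of which 96 were in the tables and 82 were tested. In LPS versus control 13 of the 82 were higher and 1 lower at an unadjusted p under 0.05, where 5.52% of all tested genes were higher and 1.62% lower. In LPS+bLF versus LPS 2 were higher and 7 lower, where 3.27% of all tested genes were higher and 3.65% lower. None was called after adjustment in edgeR in the 6 comparisons. DESeq2 called 4 in LPS versus control (Il18rap, Pstpip1, Spi1 and Syk), 1 in LPS+bLF versus LPS (Il18rap) and 6 in the averaged LPS effect, where it called 139, 7 and 138 of all genes. The median log2 fold changes were 0.06 and -0.12 over the 82 genes, against -0.04 and -0.02 over all tested genes. LPS versus control and LPS+bLF versus LPS share the LPS libraries, so they are not separate tests.

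Among the inhibitors 6 of 14 were higher in LPS lungs at that limit and 0 lower (5.52% and 1.62% of all tested genes), and in LPS+bLF lungs 3 of 14 were lower than in LPS lungs and 1 higher (3.65% and 3.27% of all tested genes). Il1rn, which encodes the interleukin 1 receptor antagonist, was at 6.32, 3.04 and 2.95 FPKM in LPS lungs, against 1.97, 1.47 and 1.78 FPKM in control lungs (log2 fold change 1.36 ± 0.39, SE, edgeR adjusted p = 0.435). With lactoferrin it was at 2.28, 1.74 and 2.2 FPKM in LPS+bLF lungs, below every LPS library, as for 4.91% of tested genes (-1.06 ± 0.39, SE, edgeR adjusted p = 0.689). Tnfaip3, the ubiquitin-editing brake on NF-kB, had 0.69 ± 0.20 in LPS versus control and -0.56 ± 0.20 in LPS+bLF versus LPS (SE). Il1r2, the decoy receptor of interleukin 1, was counted among the 6 through 1 library, with 50.74, 0.77 and 1.16 FPKM in LPS lungs, against 0.66, 0.81 and 0.94 FPKM in control lungs. That library, LPS replicate 1, was also the one with the highest neutrophil sum. Serpinb1a, an inhibitor of neutrophil serine proteases, went the other way, with 8.27, 13.24 and 10.98 FPKM in LPS+bLF lungs, against 4.1, 6.93 and 6.7 FPKM in LPS lungs (0.86 ± 0.24, SE, edgeR adjusted p = 0.689).

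Among the cytokine substrates and their receptors, 2 of 10 were higher in LPS lungs at that limit (5.52% of all tested genes) and 2 lower in LPS+bLF lungs than in LPS lungs (3.65%), and in each case they were Il18 and Il18rap. Il18 was at 11.16, 18.49 and 21.74 FPKM in LPS lungs, against 11.02, 9.23 and 13 FPKM in control lungs (log2 fold change 0.69 ± 0.21, SE, edgeR adjusted p = 0.48). Il18rap, the accessory chain of the interleukin 18 receptor, was at 4.89, 4 and 3.43 FPKM in LPS lungs, against 1.37, 1.73 and 1.35 FPKM in control lungs (1.54 ± 0.26, SE, edgeR adjusted p = 0.0957). In LPS+bLF lungs Il18rap was at 1.93, 1.41 and 1.55 FPKM, below every LPS library, as for 4.91% of tested genes (-1.38 ± 0.26, SE, edgeR adjusted p = 0.689). Il18 had -0.52 ± 0.21 in that comparison (SE, edgeR adjusted p = 0.689). Il1b was at 15.5, 14.51 and 21.06 FPKM in LPS lungs, against 5.05, 17.07 and 14.23 FPKM in control lungs, and the groups overlapped (0.51 ± 0.42, SE). Il1a was listed at 0 in LPS replicate 1 and was at 0.74 and 1.5 FPKM in the other LPS lungs, against 0.62, 2.14 and 2.03 FPKM in control lungs.

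Among the priming genes 2 of 17 were higher in LPS lungs at an unadjusted p under 0.05 and 0 lower (5.52% and 1.62% of all tested genes). In LPS+bLF lungs 1 of 17 was lower than in LPS lungs at that limit and 0 higher (3.65% and 3.27%). Spi1, which encodes PU.1, was at 144.94, 101.44 and 106.3 FPKM in LPS lungs, against 66.54, 37.61 and 65.23 FPKM in control lungs (log2 fold change 1.15 ± 0.23, SE, edgeR adjusted p = 0.13). In LPS+bLF lungs it was at 96.99, 96.06 and 86.27 FPKM, lower than every LPS library, as for 4.91% of tested genes. It was also higher there than in every control library. All 6 libraries with LPS were above all 6 without, as they were for the pan-leukocyte sum and for 0.495% of all tested genes. Cd14, the LPS co-receptor, had 0.84 ± 0.34 in LPS versus control and -1.08 ± 0.34 in LPS+bLF versus LPS (SE, edgeR adjusted p = 0.665 and 0.689). Tlr4 had 0.44 ± 0.24, and the factors Irf1 (-0.07 ± 0.19), Irf2 (-0.17 ± 0.31), which drives Gsdmd transcription, and Irf8 (0.24 ± 0.27), which drives Naip genes, differed by less than or about their errors (SE, LPS versus control).

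Among the other sensors and adaptors 1 of 8 was higher in LPS lungs at an unadjusted p under 0.05 and 0 lower (5.52% and 1.62% of all tested genes). In LPS+bLF versus LPS 0 of 8 reached that limit in either direction. The higher gene was Pstpip1, a binding partner of pyrin. It was at 28.78, 22.26 and 18.67 FPKM in LPS lungs, against 13.18, 9.05 and 10.62 FPKM in control lungs (log2 fold change 1.15 ± 0.23, SE, edgeR adjusted p = 0.127). Averaged over lactoferrin it had 0.96 ± 0.16 (SE, edgeR adjusted p = 0.0726), and all 6 libraries with LPS were above all 6 without, which held for 0.495% of all tested genes on that side. Zbp1, a sensor of Z-form nucleic acids, had 0.87 ± 0.41 in LPS versus control (SE, edgeR adjusted p = 0.684). Nek7, the partner that NLRP3 needs to assemble, had 0.30 ± 0.24, and Nlrp1b, the sensor of anthrax lethal factor, -0.66 ± 1.08 (SE), with LPS libraries at 0, 0.02 and 1.1 FPKM. Of the 17 upstream channels, regulators and GTPases, 2 were higher in LPS lungs at that limit and 1 lower (5.52% and 1.62% of all tested genes). Panx1, a channel that releases ATP, had 0.60 ± 0.21 and the kinase Syk 0.96 ± 0.19 in LPS versus control (SE, edgeR adjusted p = 0.601 and 0.133). Lrrc8a, the lower gene, had -0.27 ± 0.12 (SE, edgeR adjusted p = 0.684). Averaged over lactoferrin Lrrc8a had -0.27 ± 0.085 (SE, edgeR adjusted p = 0.488), and DESeq2 called it. In LPS+bLF versus LPS 1 of the 17 was lower (3.65%) and 0 higher (3.27%). Txnip, a redox protein that binds NLRP3, had -0.84 ± 0.31 in LPS+bLF versus LPS (SE, edgeR adjusted p = 0.689).

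Among the other caspases and partners in cell death, 0 of 10 reached an unadjusted p under 0.05 in either comparison. Of all 13735 tested genes 980 did in LPS versus control and 950 in LPS+bLF versus LPS, so a count of 0 of 10 is near the background. Casp8 had -0.14 ± 0.31 in LPS versus control (SE). Gasdermins other than Gsdmd were scarce. Gsdme was at 0.03 to 0.3 FPKM in the 12 libraries and, like 4 other listed gasdermins in the tables, did not pass the minimum for testing. Ninj1, which ruptures the membrane after the pores open, was at 11.46, 23.42 and 30.62 FPKM in LPS lungs, against 27.78, 29.27 and 30.47 FPKM in control lungs (-0.40 ± 0.31, SE). Vps4a, an ATPase of membrane repair, had 0.41 ± 0.15 in LPS+bLF versus LPS (SE, edgeR adjusted p = 0.689). Of the 6 tested genes for gasdermins and membrane rupture or repair, 1 was higher there at an unadjusted p under 0.05 (3.27% of all tested genes) and 0 lower. In LPS versus control 0 of 6 reached that limit.

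**Figure D5:**
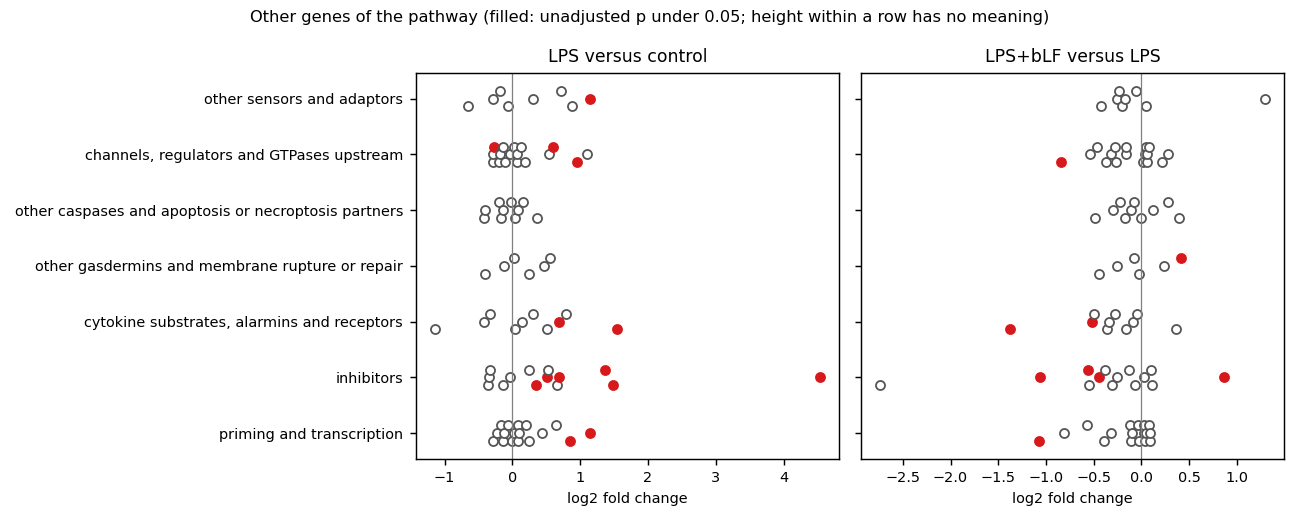
Fitted log2 fold change (x axis) of the 82 tested pathway genes, by list, in LPS versus control and in LPS+bLF versus LPS (points: genes; filled: unadjusted p under 0.05). Filled points lie mostly to the right of 0 in LPS versus control (13 of 14) and mostly to the left in LPS+bLF versus LPS (7 of 9). Among all tested genes at that limit 758 of 980 lay to the right and 501 of 950 to the left, and these comparisons share the LPS libraries.

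For each tested member the 3 genes with the most alike pattern over the 12 libraries were taken by Spearman's rank correlation of log2(FPKM + 1). They were Mrto4 (0.895), Rfc2 (0.895) and Micall2 (0.874) for Pycard, Sh2d1b1 (0.937), Slc39a1 (0.916) and Vsir (0.916) for Naip5, and Arhgap25 (0.937), Tnfaip3 (0.923) and Arhgap30 (0.916) for Aim2. For Casp1 they were Lig3 (0.949), Pik3ap1 (0.942) and Slc11a1 (0.942), for Casp4 Tyrobp (0.909), Ubp1 (0.909) and Slc2a1 (0.902), for Gsdmd Ncald (0.951), Ralgds (0.944) and Nectin1 (0.937), and for Nlrp3 Bcas3 (0.942), Thap11 (0.935) and Zc3hav1 (0.935). These are the highest of about 12260 genes each over 12 libraries that also share group and tissue make-up, and are given as a description.

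Some members share sequence or position with other genes. Casp1 and Casp4 are neighbouring genes of 1 family on chromosome 9, with Casp12 next to them. Naip5 lies in a cluster with Naip1, Naip2, Naip3 and Naip6 on chromosome 13. Its deposited count was not whole in 1 library, and that of Aim2 in 3, and how reads shared between genes were counted is not given in the sources used here. Naip2, at 0.13 to 0.76 FPKM, and Naip6, at 0.02 to 0.16 FPKM, were below the minimum for testing. The gene spans of Pycard and Aim2 each overlap a gene on the opposite strand in GENCODE (Gm45205 and Cadm3). Overlap of exons was not examined, and strandedness of the counting is not given in the sources used here. Whether reads of these partners were counted for Pycard or Aim2 is therefore not known.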

How the data were processed

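Lung polyadenylated RNA of 12 mice was sequenced as 1 library per mouse. Per the labels, 24 mice were divided into 4 groups of 6, and 3 per group were sequenced. Nothing states cages or batches, and p-values measure the spread between these mice. The submitters' processing notes name HISAT2 2.1.0, RSEM 1.2.8 and mm10, with no role or order. Per the file headers, each deposited file holds a count and an FPKM per gene. The deposited counts were treated like RSEM's expected counts, since 4.1 to 5.9% of them per library were not whole numbers (tolerance 0.005), and were rounded. Annotation, strandedness and filters are not given in the sources used here. Of 17920 gene IDs, 17869 matched RefSeq's GRCm38 table, the source of coordinates.

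The 13735 genes that reached 0.5 FPKM in 3 or more libraries were tested with edgeR 4.0.16 (TMM factors, quasi-likelihood, 1 fit of 4 group means, 8 residual degrees of freedom, two-sided, Benjamini-Hochberg over all tested genes) in R 4.3.3. The SE was derived from the F statistic. Alternatives were DESeq2 1.42.0, limma 3.58.1 on log2(FPKM + 1) and log2(FPKM + 0.1), other scaling factors, other filters, only the groups compared, a replicate block, and each library left out. The code was tested on simulated counts. Members and lists were chosen with earlier results of these data known. Named genes are all members, of each pathway list up to 2 genes per direction with the smallest p in a comparison at a mean of at least 1 FPKM, of which part is given, and 13 fixed genes. Genes named beyond this rule (Naip2, Naip6) were chosen after their values were seen.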

Additional observations from a re-analysis of the deposited data

How the results depend on the processing

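Under other settings 854 values of single members kept direction and side of the threshold, 49 changed direction, each with p above 0.05 with all 12 libraries, and 1 (Pycard, averaged LPS effect) passed under DESeq2. Genes called under DESeq2 numbered 139 in LPS versus control, 7 in LPS+bLF versus LPS, 1 in bLF versus control, 13 in LPS+bLF versus control, 138 in the averaged LPS effect and 1 in the interaction, against 0 in edgeR, and members called numbered 1 in the averaged effect. limma called 2 genes in LPS versus control and 3 in the averaged effect on log2(FPKM + 1), and 4 in the averaged effect on log2(FPKM + 0.1). With the 7 libraries left without the 5 that stood apart (1 of them LPS+bLF, assumed to vary like the other groups), 12, 2, 2 and 2 genes were called in LPS versus control, in the averaged effect, in bLF versus control and in LPS+bLF versus control. The cause of these differences was not tested.

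Members at an unadjusted p under 0.05 then numbered 1 in LPS versus control and 0 in LPS+bLF versus LPS and LPS+bLF versus control. With only the groups compared they numbered 0 in each of these last comparisons, and in LPS+bLF versus control 2 under DESeq2, 0 with upper-quartile factors and 0 with the replicate block. The replicate block changed no call after adjustment. Replicate numbers recur in each group. Of 18 same-numbered pairs of libraries, 5 deviated together from their group means with a correlation over 0.1 (range -0.694 to 0.571), so the numbers were not taken to pair the mice. Leaving out 1 library gave 0 to 25 genes called in LPS versus control, 0 to 2 in LPS+bLF versus LPS and 0 to 44 in the averaged effect, with 25 and 44 without LPS replicate 1. Members at an unadjusted p under 0.05 ranged from 1 to 3 in LPS versus control, 0 to 1 in bLF versus control and in both comparisons of LPS+bLF, and 2 to 3 in the averaged effect.

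Directions changed as follows (log2 fold change). In LPS+bLF versus LPS, Casp1 had 0.002 by limma with a pseudocount of 0.1 and 0.023 with the replicate block, and with 7 libraries Casp4 had 0.099 and Gsdmd -0.005. In LPS+bLF versus control, Casp1 had -0.056 with upper-quartile factors and -0.327 with 7 libraries, and Nlrp3 had 0.195 with 7 libraries. With 7 libraries Nlrp3 had 0.149 in the averaged effect and Pycard 0.305 in the interaction. With 1 library left out, the values in LPS versus control ran from -0.331 to 0.562 for Casp1, -0.551 to 0.366 for Casp4 and -0.023 to 0.514 for Nlrp3. In LPS+bLF versus LPS they ran from -0.526 to 0.328 for Casp1, -0.024 to 0.096 for Gsdmd and -0.321 to 0.013 for Pycard. In bLF versus control they ran from -0.332 to 0.138 for Aim2, -0.76 to 0.002 for Casp1, -0.875 to 0.046 for Casp4 and -0.33 to 0.246 for Pycard. In LPS+bLF versus control they ran from -0.375 to 0.386 for Casp1, -0.744 to 0.175 for Casp4, -0.058 to 0.326 for Naip5 and -0.283 to 0.078 for Nlrp3. In the averaged effect they ran from -0.21 to 0.248 for Casp4 and -0.196 to 0.079 for Nlrp3, and in the interaction from -0.411 to 0.091 for Aim2, -0.177 to 0.702 for Casp1, -0.237 to 0.682 for Casp4 and -0.427 to 0.148 for Pycard.

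Depth limits Nlrc4 and Mefv, with at most 23 and 39 counts in a library. Nlrp3 has no value under the minimum mean of 1 FPKM, and the fit of only the groups compared does not apply to the averaged effect and the interaction.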
